A study of Sus scrofa with 189 samples.

Results

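The share of mitochondrial transcripts in longissimus dorsi muscle was compared between pigs with much and pigs with little of it. For each library the FPKM of the rows on the mitochondrial chromosome were summed and divided by the sum of all rows. FPKM are fragments scaled to the length of a transcript and to the mapped fragments of its library. The groups were chosen by this measured share. The 42 libraries with the highest share (called high) were set against the 42 with the lowest (called low), among the 168 libraries whose titles carry no mark, and the series holds 189 libraries in all. The 84 libraries between them (called middle) and the 21 libraries titled re-analyzed were not used to form the groups.

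Both groups came from one population. All animals were F1 offspring of Duroc boars and Luchuan sows, kept at the same farm on the same diets and slaughtered at 210 ± 6 days of age at the same abattoir. Muscle was taken at the thoracolumbar junction 25 minutes after death, and polyA RNA was sequenced as 1 library per pig. No treatment, genotype or sex separates the groups in the labels. Kinship between the pigs is not in the labels, and the tests take each pig as an independent sample.

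Mitochondria carry a small circular genome that encodes core subunits of the respiratory chain and of ATP synthase, with the ribosomal and transfer RNAs needed to translate them. Both of its strands are transcribed as long precursors that are cut into separate RNAs, and most of its messenger RNAs receive a short poly(A) tail. All other proteins of the organelle are encoded in the nucleus, among them the transcription factor TFAM, the polymerase POLRMT and the RNA-stabilising protein LRPPRC. Muscle with many oxidative fibres is known for a high content of mitochondria, whereas the pig longissimus is a mostly fast, glycolytic muscle.

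The share chose the groups and is given here as a description. In the high group it lay between 8.58% and 13.4% with a median of 9.28% (mean 9.76% ± 1.31, SD, n = 42). In the low group it lay between 2.69% and 5.17% with a median of 4.28% (mean 4.29% ± 0.694, SD, n = 42). The distribution had no gap at the limits of the groups. The lowest high library had 8.58% and the next library below it 8.44%, and the highest low library had 5.17% and the next above it 5.22%. The re-analyzed libraries ranged from 4.61% to 11.6% with a median of 6.99%.

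**Figure D1:**
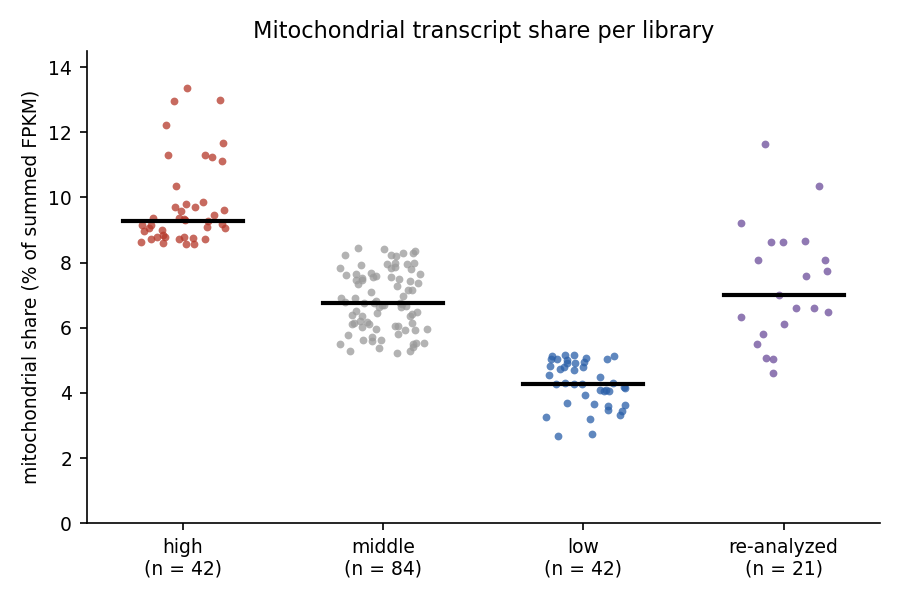
Mitochondrial transcript share of every library, in percent of its summed FPKM, for the high, middle and low groups and the re-analyzed libraries, with black lines at the medians. The 42 high libraries lie at or above 8.58%, the 42 low libraries at or below 5.17%, and the 21 re-analyzed libraries spread over both ranges.

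The summed FPKM per library ranged from 364109 to 465105. Sequencing depth is unknown, since the values hold no counts, and errors are the spread between animals. Library 39, the high library with the highest share, stood apart from its group. It had the lowest median correlation with other libraries (0.907) and 10587 genes of at least 1 FPKM. Its 12 adipocyte markers summed to 3972 FPKM, against at most 827 FPKM in any of the other 41 high libraries. In the low group, library 122 had the lowest median correlation (0.909). Without these 2 libraries 5945 nuclear genes were higher and 1218 lower, against 6056 and 1096 with them.

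The groups also differed in their titles. The first digits of the title were 15 in 22 high and 5 low libraries, and 16 in 20 high and 37 low libraries (Fisher's exact test, 2-sided, p = 0.000131). What these digits stand for is not stated. The nuclear comparison was therefore repeated within each kind of title.

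Every protein-coding gene of the mitochondrial genome had a higher median in the high than in the low group, but to very different degrees. The 29 mitochondrial rows consist of 13 protein-coding genes, 2 ribosomal RNAs and 14 transfer RNAs, placed by their coordinates in RefSeq's annotation of the same build, Sscrofa11.1. The ratio of the medians, high over low, ranged over the 13 coding genes from 1.17 to 6.49 with a median of 2.68. Since these rows formed the groups, the values are a description without a test.

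COX1 and COX3, subunits of cytochrome c oxidase, were the most abundant and differed least. COX3 (positions 9800 to 10583) had 5228, 7253 and 12365 FPKM (lowest, median and highest) in high libraries, against 4027, 6184 and 10151 FPKM in low libraries. COX1 (6511 to 8055) had 5619, 7679 and 12088 FPKM in high libraries, against 2472, 4969 and 7712 FPKM in low libraries. The groups overlapped in both genes. The third core subunit of the same complex, COX2 (8203 to 8890), had 3510, 4705 and 7459 FPKM in high libraries, against 591, 1367 and 2940 FPKM in low libraries, and the groups did not overlap.

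ATP6 and ATP8, the mitochondrially encoded subunits of ATP synthase, stood among the genes with the widest separation. ATP6 (9120 to 9800) had 1687, 3949 and 10714 FPKM in high libraries, against 235, 609 and 1672 FPKM in low libraries. ATP8 (8959 to 9162), which overlaps it, had 549, 1164 and 2691 FPKM in high libraries, against 81.1, 227 and 468 FPKM in low libraries. ATP6 ends where COX3 begins, and both are cut from one precursor. The ratio of ATP6 to COX3 had a median of 0.416 in high libraries (0.202 to 1.37), against 0.0967 in low libraries (0.0459 to 0.336).

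The subunits of complex I ranged between these extremes. ND1 differed least, with a ratio of medians of 1.73, and ND6 most, with 5.55. ND2 had 641, 1013 and 1826 FPKM in high libraries, against 96.8, 243 and 475 FPKM in low libraries, without overlap. ND4 and ND5 also did not overlap between the groups (ratios of 2.54 and 3.50), whereas ND3, ND4L, ND1 and ND6 did. ND6 lies on the opposite strand from the other coding genes. Whether strand was used in counting is not given, so its reads and those of the opposite strand cannot be told apart. CYTB, the mitochondrial subunit of complex III, had a ratio of 1.88.

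The composition of the mitochondrial RNA thus differed along with its amount. COX3 made up 18.0% of the mitochondrial sum in high libraries and 34.3% in low libraries (medians). COX1 made up 19.6% in high and 25.9% in low libraries. COX1 and COX3 together held 3.65% of all FPKM in high libraries, against 2.62% in low libraries. All other mitochondrial rows together held 5.88% in high libraries, against 1.64% in low libraries. Over the 168 unmarked libraries the deposited level of COX3 followed the share weakly (Pearson's r = 0.356). That of COX1 followed it more closely (0.637), and those of COX2, CYTB, ND2, ND4 and ND5 most closely (0.925 to 0.935). These levels are part of the share, so the coefficients are a description. In the 21 re-analyzed libraries COX3 had a coefficient of 0.812.

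Ribosomal and transfer RNAs were a small part of these polyA libraries. Coding genes held 97.4% of the mitochondrial sum in high libraries, against 98.7% in low libraries. Ribosomal RNA held 1.16% in high libraries, against 0.284% in low libraries, and transfer RNA 1.50% in high, against 1.05% in low libraries. The 16S ribosomal RNA (2274 to 3844) had the largest ratio of medians of any row, 19.3, with 33.1, 298 and 1321 FPKM in high libraries, against 4.69, 15.4 and 106 FPKM in low libraries. The transfer RNA rows are shorter than a sequenced fragment, and their FPKM cannot be set beside those of longer genes.

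**Figure D2:**
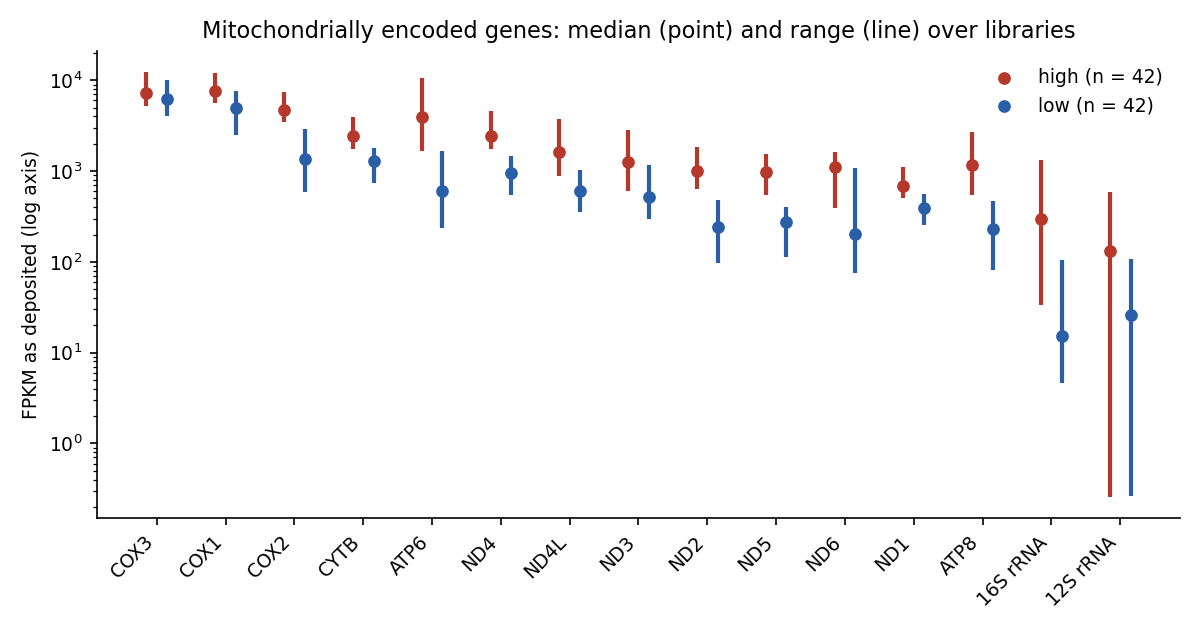
Deposited FPKM, on a log axis, of the 13 protein-coding genes and 2 ribosomal RNAs of the mitochondrial genome, in order of their median level, with the median (point) and range (line) over 42 high and 42 low libraries. COX3 and COX1 lie close together in both groups, whereas COX2, ATP6, ATP8, ND2, ND4 and ND5 do not overlap.

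The nuclear genes were compared after each library was rescaled to its nuclear rows alone. As deposited, all values of a library share 1 total, so nuclear values go down when mitochondrial values go up. Rescaled values and the share still have the nuclear sum as a common divisor. A library in which a few very abundant nuclear genes are low therefore has both a higher share and higher values of other genes. Each direction was also followed under 5 scalings, and the text counts where it was the same, and passed the test, under all of them. These were the nuclear sum, the values as deposited, the median of ratios to a typical library, quantile normalization, and the nuclear sum without the 10 most abundant genes. The groups were the same under all 5, so the scalings cannot undo the choice of groups by the share. With groups chosen again on the share without the 10 most abundant genes, 5739 of 10701 genes were higher and 1248 lower by the nuclear sum.

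Of 10701 nuclear genes tested, 6056 (56.6%) were higher and 1096 (10.2%) lower in the high group (limma, Benjamini-Hochberg adjusted p under 0.05), so 66.8% were called either way. The balance of directions rested on the scaling. By the median of ratios 73.7% were called, with 3720 genes (34.9%) higher and 4139 (38.8%) lower, and as deposited 5003 (46.8%) were higher and 2046 (19.1%) lower. The median log2 difference over all genes, high minus low, was 0.22 by the nuclear sum, 0.13 as deposited, 0.10 without the 10 most abundant genes, -0.03 by the median of ratios and -0.10 by quantile normalization. Differences below are by the nuclear sum, on the log2(FPKM + 1) scale, and are to be read against 0.22. Under all 5 scalings 3132 genes (29.3%) were higher and 1092 (10.2%) lower. The counts of each gene list below are to be read against these shares, 56.6% higher and 10.2% lower by the nuclear sum, and 29.3% and 10.2% under all 5 scalings. Of the genes called higher by the nuclear sum, 1810 turned sign under at least 1 other scaling, and 2 of those called lower. All 1063 genes higher by 1 log2 unit or more, and all 9 lower by as much, kept their call under the 5 scalings. The medians over all genes lay between -0.10 and 0.22, so differences of that size could hardly turn, and this count is not a test.

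Within titles beginning with 16 (20 high and 37 low libraries) 5648 genes (52.8%) were higher and 929 (8.68%) lower, 61.5% in all. Within titles beginning with 15 (22 high and 5 low libraries) 2950 (27.6%) were higher and 65 (0.607%) lower. With the first 4 digits of the title as a factor 5831 (54.5%) were higher and 939 (8.77%) lower, 63.3% in all. Of the 80 named genes called higher in the whole comparison, 65 were also called within titles beginning with 15 and 78 within titles beginning with 16. Of the 58 named genes called lower, 13 were called within titles beginning with 15 and 51 within titles beginning with 16. Titles beginning with 15 include 5 low libraries.

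High libraries were less dominated by a few abundant muscle genes. The 10 most abundant nuclear genes held 20.7%, 32.4% and 40.8% of the nuclear sum in high libraries (lowest, median and highest), against 32.1%, 39.6% and 45.6% in low libraries. High libraries had 8918, 9366 and 10587 genes of at least 1 FPKM, against 7779, 8629 and 9293 in low libraries. The median number of genes listed at 0 was 37.5 in high libraries and 107.5 in low libraries. Across the 168 unmarked libraries the share had a Pearson's r of -0.716 with the part held by the 10 genes and of 0.698 with the number of genes of at least 1 FPKM. These measures share the total of each library, and the coefficients are a description. Depth cannot be read from these values, and its part in the numbers of genes was not tested.

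**Figure D3:**
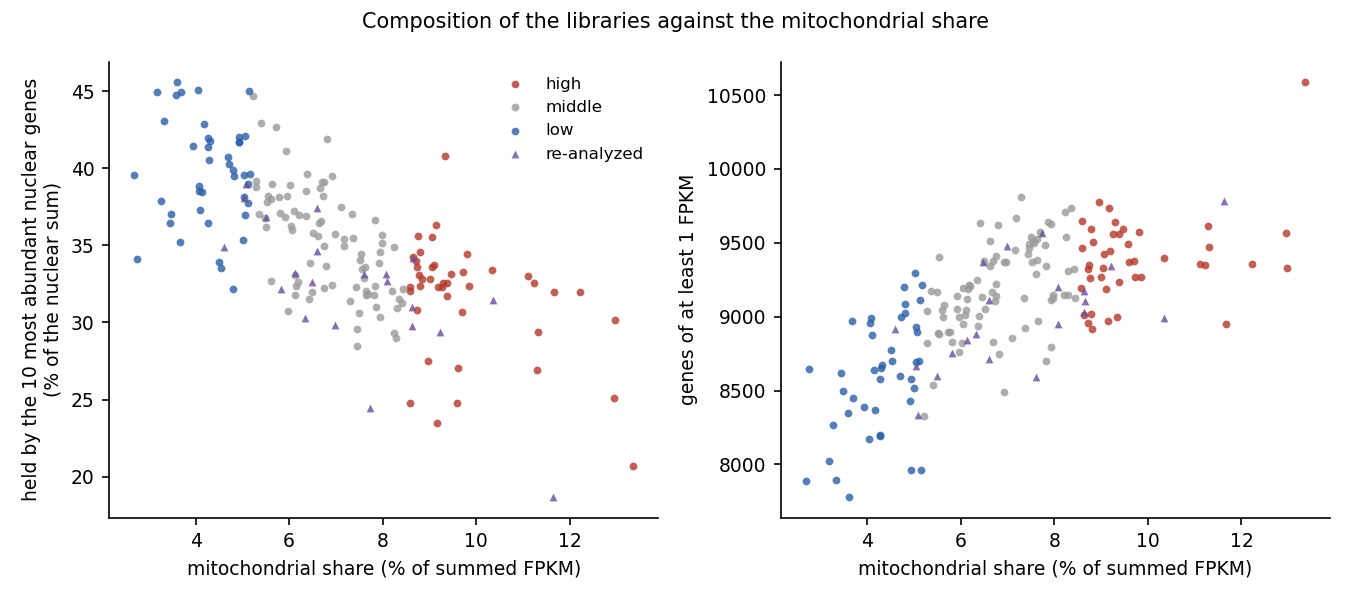
Mitochondrial share of each library (x axis, percent of summed FPKM) against the part of the nuclear sum held by the 10 most abundant nuclear genes (left, percent) and against the number of genes of at least 1 FPKM (right), for high, middle, low and re-analyzed libraries. Library 39 lies alone at 13.4% with 10587 genes.

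Skeletal actin ACTA1, the thin-filament protein and the most abundant nuclear gene, had 11710, 22455 and 35606 FPKM in high libraries, against 20076, 34707 and 43099 FPKM in low libraries. It held 5.79% of the nuclear sum in high libraries and 8.95% in low libraries (medians), and was lower by a log2 difference of -0.63 (SE 0.0792, limma adjusted p = 3.03e-11). The fast regulatory light chain MYLPF was lower by a similar amount (-0.62, SE 0.0606), with 12361 FPKM in high and 19306 FPKM in low libraries at the median. Of the glycolytic enzymes among the 10, ALDOA was lower by -0.42, GAPDH by -0.44 and ENO3 by -0.28, and GAPDH turned to 0.08 by quantile normalization. The fast troponin TNNI2 was lower by -0.47. TNNT3, the fast troponin T, was lower by -0.15 and turned to 0.13 by quantile normalization, and TNNC2 did not pass the test (0.09, SE 0.0565, limma adjusted p = 0.145). TPT1, which encodes the widely expressed translationally controlled tumour protein, was higher (0.46, SE 0.0724). ACTA1 (-0.53, limma adjusted p = 0.0756) and MYLPF (-0.45, limma adjusted p = 0.0609) did not pass the test within titles beginning with 15. The 10 genes are the largest terms of the common divisor, and their differences are not independent of the share.

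TRDN, which encodes triadin of the calcium-releasing junction of the sarcoplasmic reticulum, showed the largest difference of all named genes. It had 53.7, 185 and 482 FPKM in high libraries, against 11.3, 27.1 and 75.2 FPKM in low libraries, a log2 difference of 2.80 (SE 0.144, limma adjusted p = 5.43e-31). All 42 high libraries lay above the low median, and 41 above every low library. The gene spans positions 39180526 to 39339224 of chromosome 1. XIRP2 and NEXN, both actin-binding proteins of the sarcomere's Z-disc region, were higher by 2.65 each. XIRP2 had 56.1, 177 and 566 FPKM in high libraries, against 7.08, 24.4 and 133 FPKM in low libraries. NEXN had 45.4, 137 and 501 FPKM in high libraries, against 7.04, 22.7 and 136 FPKM in low libraries. In both the ranges overlapped, and fewer high libraries (24 and 21 of 42) exceeded every low one.

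NEAT1, the long RNA that scaffolds nuclear paraspeckles, was higher in all 3 of its annotated stretches on chromosome 2. NEAT1_2 (6810761 to 6810884) had 132, 505 and 990 FPKM in high libraries, against 15.3, 58.0 and 172 FPKM in low libraries (2.80, SE 0.161, limma adjusted p = 4.24e-28). NEAT1_1 and NEAT1_3 were higher by 2.43 and 2.41. The stretches belong to one locus and are short, so they are one observation and their level cannot be set beside that of longer genes.

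GOLGA4, a golgin of the trans-Golgi, separated the groups completely, with 7.55, 25.2 and 59.1 FPKM in high libraries, against 1.61, 3.39 and 6.61 FPKM in low libraries (2.57, SE 0.110). CUL5, a scaffold of ubiquitin ligases, nearly did so, with 7.53, 21.5 and 40.3 FPKM in high libraries, against 0.794, 3.14 and 8.59 FPKM in low libraries (2.37, SE 0.116). PPP1R3A, which directs protein phosphatase 1 to glycogen in muscle, had 46.6, 140 and 311 FPKM in high libraries, against 6.75, 26.2 and 86.6 FPKM in low libraries (2.42, SE 0.143). TEX9 was higher by 2.44. TMEM238 was higher by 2.80, but with 1.53 to 93.4 FPKM in high and 0.588 to 70.3 FPKM in low libraries only 6 high libraries exceeded every low one. Within titles beginning with 15 it did not pass the test (1.53, limma adjusted p = 0.107), against 3.35 within titles beginning with 16. These genes were called higher under all 5 scalings.

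The 12 genes that led the higher side moved together. Over the 168 unmarked libraries the Pearson's r of their log2 values lay between 0.632 and 0.991 over the 66 pairs (median 0.890). Genes chosen for the same difference must correlate, and 3 of the 12 are NEAT1, so the coefficients are a description. Their values were not spread evenly over the libraries. LUC7L3, the splicing factor described below, was counted in 10 bins of equal width in log2(FPKM + 1). The bin from 5.01 to 7.11 FPKM held 22 unmarked libraries, that from 7.11 to 9.95 FPKM 17, and that from 13.8 to 18.9 FPKM 7. The bins from 18.9 to 25.9, from 25.9 to 35.3 and from 35.3 to 47.9 FPKM held 16, 28 and 32. In the middle group, with shares from 5.22% to 8.44%, 42 of 84 libraries exceeded every low library in LUC7L3 and 38 lay below every high library. For TRDN these counts were 45 and 28, and for GOLGA4 55 and 32.

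**Figure D4:**
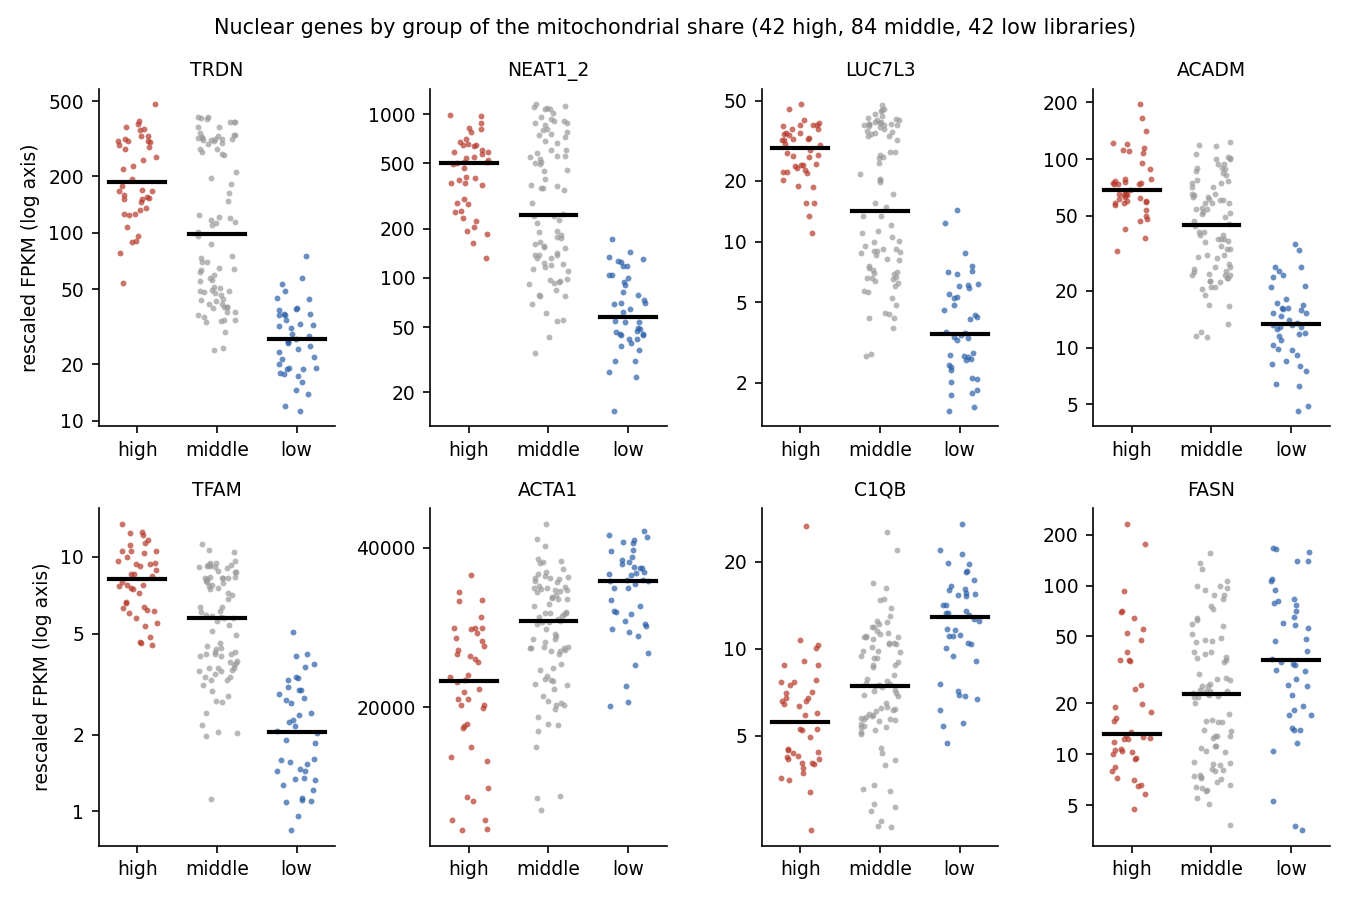
Rescaled FPKM per library, on log axes, of 8 nuclear genes in the high, middle and low groups, with black lines at the medians. TRDN, NEAT1_2, LUC7L3, ACADM and TFAM are higher and ACTA1, C1QB and FASN lower in the 42 high than in the 42 low libraries, and in the middle group TRDN and LUC7L3 form an upper and a lower cloud.

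Lower genes had smaller differences. ACY1, an aminoacylase that frees amino acids from their acetyl form, had 0.710, 3.33 and 16.0 FPKM in high libraries, against 0.759, 12.1 and 29.2 FPKM in low libraries (-1.30, SE 0.166, limma adjusted p = 4.62e-11). APOD, a lipid-binding apolipoprotein, was lower by -1.14 and the folate receptor FOLR1 by -0.999. PTK6, a tyrosine kinase, had 8.16, 19.0 and 47.0 FPKM in high libraries, against 24.3, 36.0 and 56.9 FPKM in low libraries, and 33 of 42 high libraries lay below every low one. TIMP1, an inhibitor of matrix proteases, was lower by -0.83, and the myosin-binding MYBPH by -0.91. The sulfotransferase SULT1A3 (-0.95) and UBXN6, a cofactor of the segregase VCP (-0.84), were lower too. CRYAB, a small heat shock protein, ranged from 2.18 to 1239 FPKM in high and from 5.40 to 1604 FPKM in low libraries. Its difference of -1.04 had an SE of 0.464 (limma adjusted p = 0.0424) and turned to 0.17 within titles beginning with 15. Of the 12 leading lower genes, ACY1 (limma adjusted p = 0.00555) and PTK6 (limma adjusted p = 0.0216) passed the test within titles beginning with 15, and the other 10 did not. Among those 10, FASN (-0.75, limma adjusted p = 0.408), APOD (-0.91, limma adjusted p = 0.319) and FOLR1 (-0.73, limma adjusted p = 0.142) kept a negative difference there, as did C1QB (-0.57, limma adjusted p = 0.195). All but CRYAB (limma adjusted p = 0.14) passed within titles beginning with 16.

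Nuclear genes of oxidative phosphorylation did not follow the mitochondrial genes in size. Of 82 listed, 68 were tested; 36 were higher and 10 lower, with a median difference of 0.16 against 0.22 over all genes. By the median of ratios 11 were higher and 40 lower, and 11 were higher and 10 lower under all 5 scalings. Their summed FPKM were 4860, 6223 and 7731 in high libraries, against 4228, 5579 and 7442 in low libraries. The mitochondrial coding sum was 6.43 times the nuclear sum of this list in high libraries (4.72 to 11.3), against 3.04 times in low libraries (1.72 to 4.40), a description, since the upper term formed the groups.

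Within complex I, which oxidises NADH, 16 of 33 genes were higher and 5 lower (7 and 5 under all 5 scalings). NDUFA5 had 5.87, 10.7 and 18.5 FPKM in high libraries, against 0.628, 2.14 and 5.10 FPKM in low libraries, without overlap (1.83, SE 0.0870, limma adjusted p = 8.5e-33). NDUFC1 was higher by 1.50. The iron-sulfur subunit NDUFS8 was lower, with 64.2, 103 and 158 FPKM in high libraries, against 99.1, 158 and 228 FPKM in low libraries (-0.59, SE 0.0644), and NDUFB7 was lower by -0.31. In complexes II and III with cytochrome c, 8 of 12 genes were higher and 0 lower. Cytochrome c itself, CYCS, had 81.3, 132 and 234 FPKM in high libraries, against 36.2, 66.4 and 96.6 FPKM in low libraries (1.01, SE 0.0752), and was the 1 gene of the 12 higher under all 5 scalings. By the median of ratios 8 of these 12 were lower.

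In complex IV, the partner of COX1, COX2 and COX3, 6 of 12 nuclear genes were higher and 3 lower, with 2 and 3 under all 5 scalings. COX6C (0.83) and COX7B (0.62) were higher, whereas COX8A was lower (-0.43), with 24.9, 41.6 and 121 FPKM in high libraries, against 41.3, 57.0 and 76.8 FPKM in low libraries. COX5A was lower by -0.19 and turned to 0.13 within titles beginning with 15. In complex V, ATP synthase, 6 of 11 were higher and 2 lower, with 1 and 2 under all 5 scalings. ATP5I, the subunit also named ATP5ME, was higher by 0.89, and the inhibitor ATPIF1 by 0.47. The subunits ATP5D, which lies in the rotor stalk, and ATP5G2, of the membrane ring, were lower by -0.58 and -0.33.

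Genes that maintain and transcribe mitochondrial DNA had a list median above that of all genes, and 8 of the 13 lay above it. Of 13 tested, 10 were higher and 0 lower, with a median of 0.57, and 8 were higher under all 5 scalings. By the median of ratios 8 were higher and 4 lower, with a median of 0.35. TFAM, which packages the mitochondrial genome and starts its transcription, had 4.49, 8.18 and 13.5 FPKM in high libraries, against 0.843, 2.04 and 5.06 FPKM in low libraries (1.55, SE 0.0899, limma adjusted p = 5.56e-28), and 38 high libraries exceeded every low one. MTERF2, of the termination factor family, was higher by 1.05. POLRMT, the polymerase itself, had 0.503, 3.60 and 11.6 FPKM in high libraries, against 0.701, 5.02 and 11.1 FPKM in low libraries, and did not pass the test (-0.26, SE 0.190, limma adjusted p = 0.221).

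Among genes that process and stabilise mitochondrial RNA, 12 of 19 were higher and 2 lower, with 6 and 2 under all 5 scalings. LRPPRC and its partner SLIRP, which together bind and stabilise mitochondrial messenger RNAs, were both higher. LRPPRC had 7.88, 12.0 and 25.9 FPKM in high libraries, against 1.99, 5.09 and 8.83 FPKM in low libraries (1.18, SE 0.0931). SLIRP had 39.4, 94.4 and 186 FPKM in high libraries, against 19.7, 34.9 and 114 FPKM in low libraries (1.40, SE 0.105). FASTKD1, of a family that acts on mitochondrial RNA, was higher by 1.40, whereas its relatives TBRG4 (-0.26) and FASTK (-0.13) were lower.

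Mitochondrial ribosomal proteins moved in both directions. Of 66 tested, 34 were higher and 14 lower, with a median of 0.15, and 17 and 14 under all 5 scalings. By the median of ratios 17 were higher and 39 lower. MRPL1 had 1.63, 3.87 and 7.01 FPKM in high libraries, against 0.268, 0.701 and 2.96 FPKM in low libraries (1.41, SE 0.0786). MRPL57 was higher by 2.13, with overlapping ranges of 6.99 to 141 FPKM in high and 5.47 to 138.3 FPKM in low libraries, and did not pass the test within titles beginning with 15 (0.92, limma adjusted p = 0.226). MRPS6 and MRPL28 were lower by -0.59 and -0.49. The factors of mitochondrial translation came to 13 of 15 higher and 0 lower and a median of 0.55; 9 were higher under all 5 scalings, and by the median of ratios 3 were lower. The release factors MTRF1 (1.08) and MTRF1L (0.94) led them.

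Regulators of mitochondrial biogenesis included 9 higher and 0 lower of 15 tested, near the 56.6% of all genes called higher, and 6 were higher under all 5 scalings. Their median was 0.30 by the nuclear sum and 0.02 by the median of ratios. PPARGC1A, the coactivator PGC-1α, had 0.510, 2.07 and 6.41 FPKM in high libraries, against 0.284, 0.840 and 3.92 FPKM in low libraries (0.57, SE 0.102, limma adjusted p = 9.06e-07). The catalytic AMPK subunit PRKAA2 was higher by 1.11 and the transcription factor YY1 by 0.96. ESRRA, the nuclear receptor ERRα that works with PGC-1α, was higher by 0.30 (SE 0.0755), which the median of ratios turned to -0.06, and did not pass the test within titles beginning with 15 (0.14, limma adjusted p = 0.649). PERM1, a muscle partner of these factors, did not pass the test (0.20, limma adjusted p = 0.104), nor did NRF1 (-0.04, limma adjusted p = 0.778). NRF1 had a median of 0.565 FPKM in high and 0.838 FPKM in low libraries, too low for a precise value.

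Protein import into mitochondria followed the median of all genes, with 14 of 23 genes higher and 2 lower (8 and 2 under all 5 scalings). The receptor TOMM70 (1.35) and the matrix chaperone HSPD1 (1.25) were higher, and the receptor TOMM22 (-0.17) and the cofactor GRPEL1 (-0.13) lower. Of 17 genes of mitochondrial fusion, fission and mitophagy, 11 were higher and 1 lower (7 and 1 under all 5 scalings), with a median of 0.43. The fusion protein MFN1 had 7.01, 11.1 and 20.0 FPKM in high libraries, against 1.30, 3.63 and 6.96 FPKM in low libraries, without overlap (1.47, SE 0.0880). The fission enzyme DNM1L was higher by 1.15, and FIS1, an adaptor on the outer membrane, was lower by -0.32.

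Enzymes of the citric acid cycle had counts by the nuclear sum near the 56.6% higher and 10.2% lower of all genes. Of 19, 9 were higher and 2 lower (8 and 2 under all 5 scalings), with a median of 0.10, and by the median of ratios 8 were higher and 11 lower. DLD, the dihydrolipoamide dehydrogenase shared by several complexes, had 36.3, 51.1 and 90.8 FPKM in high libraries, against 6.66, 16.7 and 28.3 FPKM in low libraries, without overlap (1.68, SE 0.0907, limma adjusted p = 9.11e-30). PDHX, of the pyruvate dehydrogenase complex, was higher by 1.50, also without overlap. SUCLG1, a succinate-CoA ligase subunit, and IDH2 were lower by -0.21 and -0.19.

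Fatty acid oxidation held the widest difference of the metabolic lists. ACADM, the medium-chain acyl-CoA dehydrogenase, had 32.6, 68.3 and 195 FPKM in high libraries, against 4.61, 13.4 and 35.3 FPKM in low libraries (2.35, SE 0.126, limma adjusted p = 7.84e-30), and 41 of 42 high libraries exceeded every low one. ACSL3, which activates fatty acids, was higher by 1.48. ACADS, the short-chain counterpart of ACADM, was lower (-0.27), with 16.4, 29.2 and 47.9 FPKM in high libraries, against 22.3, 34.7 and 55.6 FPKM in low libraries, and the carnitine carrier SLC25A20 was lower by -0.21. In all 15 of 21 genes were higher and 3 lower (7 and 3 under all 5 scalings). PDK4, which restrains pyruvate oxidation in fasting, ranged from 1.04 to 404 FPKM in high and from 0.869 to 161 FPKM in low libraries and was higher by 1.61 (SE 0.411), and KLF15 by 0.53; 4 of the 10 fasting and uncoupling genes were higher and 0 lower, with 1 under all 5 scalings.

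Carriers and creatine kinases moved in both directions, with 6 of 14 higher and 4 lower (1 and 4 under all 5 scalings). The pyruvate carrier subunit MPC2 was higher by 0.73 and the muscle ADP/ATP carrier SLC25A4 by 0.51. SLC25A6, another ADP/ATP carrier, was lower by -0.46. CKM, the cytosolic muscle creatine kinase, had 2224, 3172 and 4470 FPKM in high libraries, against 2589, 4439 and 5560 FPKM in low libraries (-0.51, SE 0.0472, limma adjusted p = 7.8e-17).

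**Figure D5:**
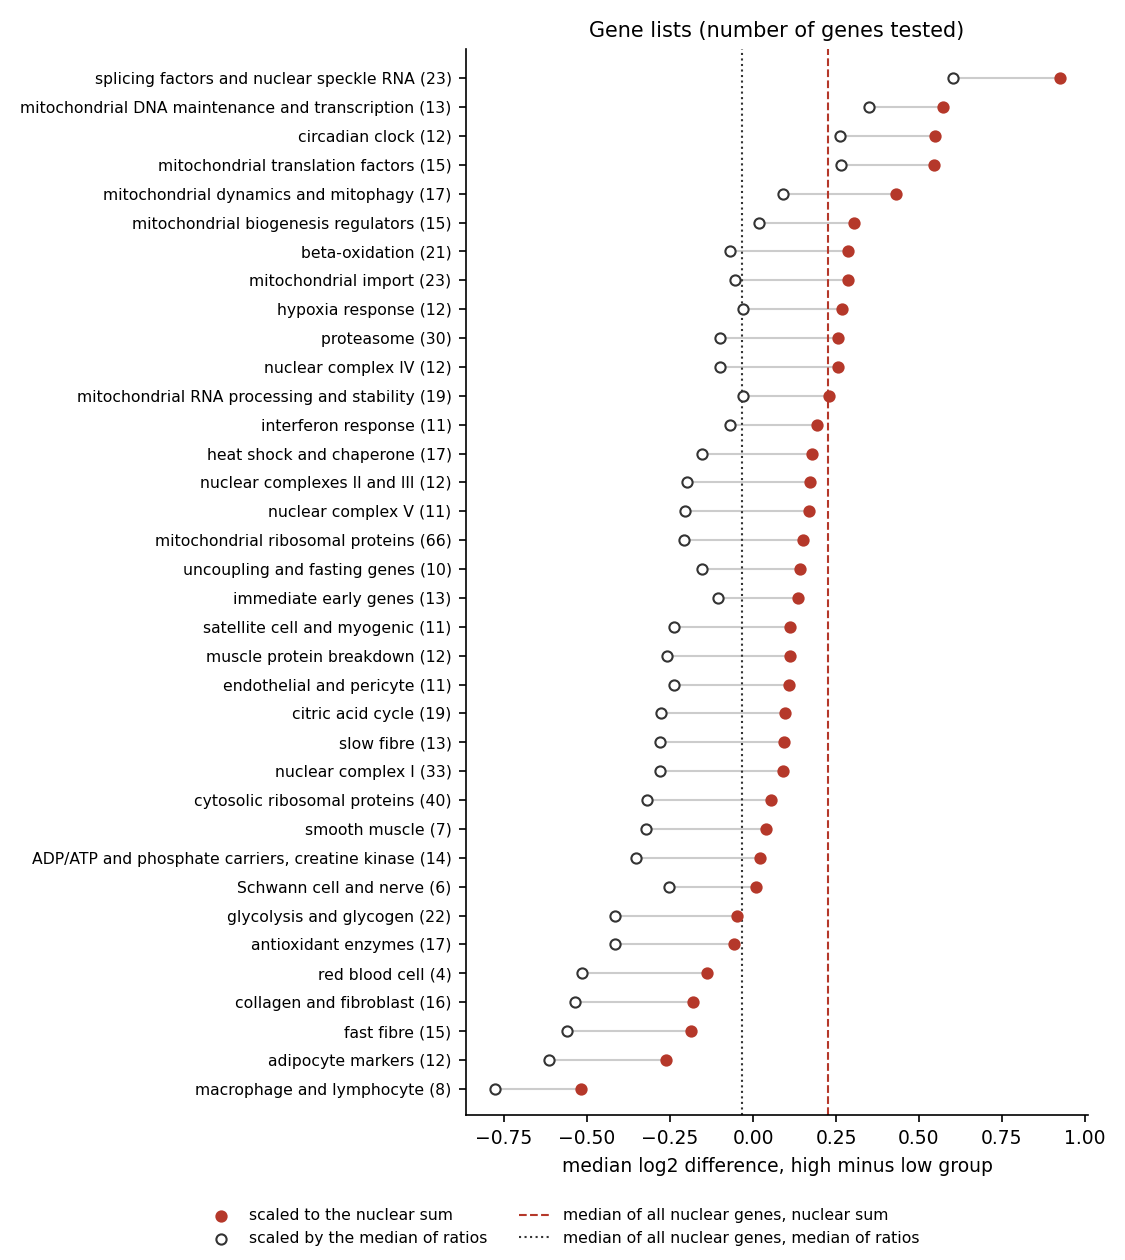
Median log2 difference, high minus low group, of each gene list (number of genes tested in brackets) when libraries are scaled to their nuclear sum (filled) or by the median of ratios (open), with the medians of all nuclear genes at 0.22 (dashed) and -0.03 (dotted). Splicing factors lie highest and macrophage, adipocyte and fast fibre genes lowest under both scalings, and the lists of the respiratory complexes have positive medians by the nuclear sum and negative ones by the median of ratios.

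Most markers of fast muscle fibres were lower, whereas those of slow fibres did not move together. Of 13 slow and oxidative fibre genes 4 were higher and 3 lower, 3 and 3 under all 5 scalings. The myosin of oxidative fast fibres, MYH2, had 2100, 4251 and 8107 FPKM in high libraries, against 1100, 2623 and 5208 FPKM in low libraries (0.74, SE 0.104, limma adjusted p = 8.38e-10). MYH7, the slow myosin, had 463, 833 and 2269 FPKM in high libraries, against 237, 809 and 1516 FPKM in low libraries, and did not pass the test (0.29, SE 0.134, limma adjusted p = 0.0531). It turned to -0.09 by the median of ratios. The slow troponins TNNC1 (-0.53) and TNNI1 (-0.45) were lower, and MYOZ2, a Z-disc protein of slow fibres, was higher (1.20).

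Of 15 fast fibre genes 2 were higher and 10 lower; 9 were lower and 0 higher under all 5 scalings. MYH4, the myosin of the fastest fibres, had 321, 1861 and 4281 FPKM in high libraries, against 613, 1551 and 3430 FPKM in low libraries. It was just past the threshold (0.29, SE 0.132, limma adjusted p = 0.0495) and turned to -0.09 by the median of ratios, and MYL1 (0.21) turned to -0.16. The calcium buffer PVALB was lower by -0.77. The summed fast fibre genes, a list that includes some of the most abundant genes of the common divisor, had 46810, 78962 and 97690 FPKM in high libraries, against 77159, 101609 and 115306 FPKM in low libraries, whereas the slow list had 6171, 9132 and 16518 FPKM in high, against 4675, 8582 and 11137 FPKM in low libraries. Of the fast genes 9 were lower within titles beginning with 16, against 8.68% of all genes, and 1 within titles beginning with 15, against 0.607%. Reads of the near-identical myosin heavy chains could have been assigned to either gene.

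Glycolysis and glycogen genes showed 6 higher and 6 lower of 22 (3 and 4 under all 5 scalings; 3 and 15 by the median of ratios). UGP2, which makes the glycogen precursor UDP-glucose, was higher by 1.01. TPI1, triosephosphate isomerase, was lower, with 139, 557 and 739 FPKM in high libraries, against 565, 808 and 1308 FPKM in low libraries (-0.64, SE 0.0728).

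Splicing factors were higher as a list. The nuclear RNAs MALAT1 and NEAT1 were listed with them but had no row under those names. All 23 tested were higher by the nuclear sum, with a median of 0.92 and a range from 0.33 to 2.55, and 21 were higher under all 5 scalings and 0 lower. All 23 were higher within titles beginning with 16 and 19 within titles beginning with 15. LUC7L3, associated with the U1 particle that recognises the start of introns, had 11.1, 29.3 and 47.9 FPKM in high libraries, against 1.45, 3.49 and 14.3 FPKM in low libraries (2.55, SE 0.119, limma adjusted p = 3.53e-33). CLK1, a kinase of splicing factors, had 17.9, 37.9 and 72.8 FPKM in high libraries, against 1.98, 8.20 and 20.4 FPKM in low libraries (2.15, SE 0.123). The 23 genes summed to 289, 399 and 597 FPKM in high libraries, against 97.6, 184 and 314 FPKM in low libraries.

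The circadian clock list had 9 of 12 genes higher and 0 lower, with a median of 0.55 and 5 under all 5 scalings; by the median of ratios 2 were lower. NR1D2, the nuclear receptor REV-ERBβ, had 9.69, 29.7 and 63.1 FPKM in high libraries, against 2.81, 7.40 and 21.2 FPKM in low libraries (1.83, SE 0.132), and CLOCK was higher by 1.15. The hour of slaughter is not in the labels, and its part was not tested. Of 12 hypoxia genes 7 were higher and 0 lower (5 under all 5 scalings, 4 lower by the median of ratios), near the 56.6% of all genes called higher. The largest differences were those of the oxygen sensor EGLN1 (1.53) and the vascular growth factor VEGFA (1.30). Of 13 immediate early genes, which respond to handling and slaughter within minutes, only NR4A1 passed the test (0.44, SE 0.201, limma adjusted p = 0.0454), and 0 did so under all 5 scalings.

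Of 30 proteasome genes 19 were higher and 2 lower (6 and 2 under all 5 scalings), near the 56.6% of all genes called higher and, under all 5 scalings, below their 29.3%. PSMC6 (1.73) and PSMD12 (1.52), of the regulatory particle, were higher, and PSMB1 (-0.47) and PSMB2 (-0.20), of the catalytic core, lower. Of 40 cytosolic ribosomal proteins 16 were higher and 12 lower, with a median of 0.05; 5 and 12 held under all 5 scalings. RPL7 and RPL5 were higher by 0.84 and 0.82, and RPLP1 and RPLP0, of the ribosomal stalk, lower by -0.52 and -0.37. The myostatin gene MSTN, which restrains muscle growth, had 0.194, 5.01 and 13.3 FPKM in high libraries, against 0.0662, 0.863 and 3.69 FPKM in low libraries (1.48, SE 0.144). It led the list of muscle protein breakdown and growth restraint, where 4 of 12 were higher and 2 lower (3 and 2 under all 5 scalings). The autophagy receptor SQSTM1 was lower by -0.56.

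Of 17 chaperones, 8 were higher and 5 lower (3 and 5 under all 5 scalings). DNAJB4 (1.79) and DNAJA1 (1.24), cochaperones of HSP70, were higher, and HSPB7, a small heat shock protein like CRYAB, was lower (-0.78). Of 17 antioxidant enzymes 7 were higher and 8 lower (4 and 8 under all 5 scalings). GCLM, of glutathione synthesis, was higher by 1.70 and the mitochondrial superoxide dismutase SOD2 by 0.65. GPX3, the secreted glutathione peroxidase, was lower by -0.78 and PRDX2 by -0.46. In the myogenic list, 5 of 11 were higher and 1 lower (3 and 1 under all 5 scalings), with MEF2C at 1.58, MEF2A at 1.20 and myogenin, MYOG, at -0.46. In the interferon list, 4 of 11 were higher and 1 lower (2 and 1 under all 5 scalings), with IFIT5 at 0.88 and IFI6 at -0.75.

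Other cells of the tissue were followed by their marker genes. In bulk samples, fewer cells of a type and less RNA per cell cannot be told apart. All 8 tested macrophage and lymphocyte genes were lower, under each of the 5 scalings, with a median of -0.52. C1QB and C1QA, chains of complement C1q made by macrophages, had medians of 5.60 and 6.38 FPKM in high libraries, against 12.9 and 13.5 FPKM in low libraries. C1QB was lower by -0.94 (SE 0.117, limma adjusted p = 1.86e-11), and 17 high libraries lay below every low one. The 8 genes summed to 137, 223 and 489 FPKM in high libraries, against 199, 271 and 378 FPKM in low libraries, and the highest value was that of library 39. Without it the high libraries reached 309 FPKM. CD163, CD3E and CD8A were listed at 0 in at least 1 library of the groups. Within titles beginning with 16, 7 of the 8 were lower, against 8.68% of all genes. Within titles beginning with 15, which include 5 low libraries, 0 of the 8 were called lower, against 0.607% of all genes. The median of the 8 was -0.36 there.

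Adipocyte markers showed 4 of 12 lower and 0 higher, with 4 lower under all 5 scalings and 9 by the median of ratios. These were enzymes and proteins of fat synthesis and storage, led by fatty acid synthase FASN, with 4.74, 13.2 and 233 FPKM in high libraries, against 3.54, 36.1 and 167 FPKM in low libraries (-0.90, SE 0.283, limma adjusted p = 0.00375), and the desaturase SCD (-0.74). The 12 markers summed to 85.0, 235 and 3972 FPKM in high libraries, against 135, 286 and 649 FPKM in low libraries, and without libraries 39 and 122 6 of the 12 were lower. ADIG was listed at 0 in at least 1 library. Among the 16 genes of collagens and fibroblasts, 5 were lower and 1 was higher, with 5 and 0 under all 5 scalings and 12 lower by the median of ratios. COL6A2 had 24.0, 38.5 and 100 FPKM in high libraries, against 37.0, 56.9 and 89.8 FPKM in low libraries (-0.50, SE 0.0842), and the matrix proteoglycan BGN was lower by -0.42. Within titles beginning with 15, none of the adipocyte and collagen genes passed the test (0 of 12 and 0 of 16). That comparison had 5 low libraries, and 0.607% of all genes were lower in it.

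Markers of vessels gave other counts. Of 11 endothelial and pericyte genes 5 were higher and 0 lower, with 1 under all 5 scalings and 6 lower by the median of ratios. RGS5, of pericytes, had 14.3, 32.3 and 62.5 FPKM in high libraries, against 3.12, 10.2 and 28.6 FPKM in low libraries (1.49, SE 0.128), and VWF, of endothelium, was higher by 0.43. The 11 genes summed to 98.4, 134 and 228 FPKM in high libraries, against 59.3, 102 and 160 FPKM in low libraries. Smooth muscle genes gave 2 higher and 1 lower of 7 and red blood cell genes 1 and 1 of 4. Schwann cell and nerve genes gave 1 and 0 of 6. The higher genes include SYNPO2 of the smooth muscle list and CHRNA1 of the nerve list. Skeletal muscle fibres also express both, so these counts do not measure those cells alone. SOX10 and HEMGN were listed at 0 in at least 1 library. The part of these cell types in the differences of other genes was not tested.

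The same relation was asked of the libraries that had not formed the groups. In the 84 libraries of the middle group, 4332 genes (40.5%) had a positive and 1020 (9.53%) a negative slope on the share by the nuclear sum. That was 50.0% in all (limma on log2 values, adjusted p under 0.05). By the median of ratios 2838 had a positive and 2757 a negative slope. The values that follow for this group are by the nuclear sum. Of the 3132 genes higher under all 5 scalings, 2883 had a positive and 0 a negative slope there. Of the 1092 lower genes, 601 had a negative and 4 a positive slope. TRDN had a slope of 9.46 log2 units per 10 percentage points (limma adjusted p = 1.65e-10), TFAM of 4.28 and ACADM of 6.26. Of the splicing list 21 of 23 genes had a positive slope and 0 a negative one, and of the adipocyte markers 10 of 12 had a negative one. Of the 8 macrophage and lymphocyte genes 2 had a negative slope. Of the nuclear genes of oxidative phosphorylation, 35 of 68 had a positive and 6 a negative slope.

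In the 21 re-analyzed libraries 3455 genes (32.3%) had a positive and 27 (0.252%) a negative slope, but by the median of ratios 140 and 147. The median slope over all genes was 0.68 by the nuclear sum and 0.03 by the median of ratios. Of the 3132 higher genes 1632 had a positive and 3 a negative slope by the nuclear sum. Of the 1092 lower genes 7 had a negative slope and 14.8% a positive one. TRDN had a slope of 1.84 per 10 percentage points (limma adjusted p = 0.0323), TFAM of 1.35 (limma adjusted p = 0.00301), ACADM of 1.73 (limma adjusted p = 0.00596) and LRPPRC of 2.00 (limma adjusted p = 0.00185). LUC7L3 did not pass the test (0.49, limma adjusted p = 0.213). All 21 re-analyzed libraries lay above every low library in LUC7L3, TRDN, GOLGA4, CUL5, CLK1 and ACADM, although their shares went down to 4.61%. Other leading genes differed in this: 5 of 21 did so in TMEM238, 8 in NEXN, 10 in PPP1R3A, 11 in XIRP2, 15 in NEAT1_1, 17 in NEAT1_3 and 20 in NEAT1_2, and all 21 in TEX9. LUC7L3 ranged from 19.3 to 37.6 FPKM in them, against 1.45 to 14.3 FPKM in the low group.

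Slopes in the re-analyzed and in the 168 unmarked libraries were compared as an interaction, and 1334 genes (12.5%) differed, 822 (7.68%) with a higher and 512 (4.78%) with a lower slope in the re-analyzed libraries. Of the splicing list 8 of 23 had a lower slope there and 0 a higher one. Of 8 macrophage and lymphocyte genes 3 had a higher slope and 0 a lower one. What the mark in the title stands for is not stated. Intramuscular fat content was 0.77 to 2.33 or 4.83 to 6.84 in the re-analyzed animals, with no value between. It was 1.65 to 5.61 in high and 1.19 to 4.95 in low animals, with medians of 3.305 and 3.23. Its part in the slopes was not tested.

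Where genes lie and how long they are went along with the difference. In 5 bins of transcript length the median log2 difference was 0.16 in the shortest (53 to 1755 bases) and 0.33 in the longest (5379 bases and more). In 5 bins of the genomic span it was 0.11 in genes of up to 8098 bases and 0.37 in those of at least 72892 bases. In the shortest span 19.1% of genes were higher and 18.4% lower under all 5 scalings, and in the longest 38.7% and 3.22%. Among chromosomes the median was lowest on chromosomes 2 (0.11) and 12 (0.12) and highest on chromosomes 11 (0.47), 15 (0.43) and 8 (0.43). By level, the bin with the highest means had a median of 0.15 and that with the lowest means 0.24. These are descriptions over genes, which are not independent replicates. The order by span was the same by the median of ratios, from -0.17 in the shortest to 0.14 in the longest span.

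Intramuscular fat content, the trait in the labels, was set against the share. It averaged 3.45 ± 0.897 in high animals (SD, n = 38) and 3.16 ± 0.866 in low animals (SD, n = 32), in the labels' unit, which is not named. The difference of 0.289 did not pass a 2-sided permutation test (p = 0.178, 100000 resamples). Over the 143 unmarked animals with a value, Pearson's r with the share was 0.0778 (permutation p = 0.355, adjusted over both coefficients 0.445) and Spearman's rho 0.0641 (permutation p = 0.445, adjusted 0.445). Without the 2 animals farthest from the median share r was 0.0887. With fat content as a covariate 5855 nuclear genes were higher and 988 lower, in the 70 animals of the groups with a value.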

How the data were processed

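The authors deposited a table of transcript abundances for 189 libraries of polyA RNA, 1 per pig. No unit stands in the file header. The deposited values were taken as FPKM, made by the authors per transcript, from their range and the quantifier named; this reading could not be verified. Reads were processed with HISAT2 2.0.5 and StringTie 1.3.3 on Sscrofa11.1, per the submitters' processing notes, and the annotation is not given in the sources used here. Counts were not used here, so depth is unknown and no count test was run.

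Transcripts were summed per gene. Nuclear rows were divided by their sum in each library and multiplied by the mean nuclear sum. Genes with a mean of at least 0.5 over the unmarked libraries were tested on log2(FPKM + 1) with limma 3.58.1 in R 4.3.3 (lmFit, eBayes with trend). P-values were adjusted over all 10701 genes by Benjamini-Hochberg, with a threshold of 0.05. A pseudocount of 1 understates changes of low genes. Other scalings, filters, pseudocounts, group limits and subsets of libraries were tried as alternatives, and the method was tested on simulated data.

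Named genes were the 12 largest differences in each direction among called genes with a symbol and a mean of at least 5, the 2 largest called members of each list in each direction, 7 regulators, the fibre genes MYH7, MYH2 and MYH4, and the 10 most abundant nuclear genes. CD163, CD3E, CD8A, ADIG, SOX10 and HEMGN were named after their values were seen, because they are listed at 0. A named gene of the glycolysis and glycogen list is not reported here. The groups and lists were chosen with earlier results of these data known.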

Additional observations from a re-analysis of the deposited data

Results flagged for a closer look

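The slope on the mitochondrial share was compared between the 21 re-analyzed and the 168 unmarked libraries (limma interaction, adjusted over all nuclear genes). Of all nuclear genes tested 12.5% differed, 7.68% with a higher and 4.78% with a lower slope in the re-analyzed libraries. Among the 12 leading higher and 12 leading lower genes of the comparison of high and low libraries, the slope differed for 9. Those genes were chosen for large differences among the same unmarked libraries, which favours steep slopes there. The interaction cannot separate a difference between the sets from that choice. Slopes are in log2 units per 10 percentage points of share, and the differences are re-analyzed minus unmarked. Over all nuclear genes the median slope was 0.68 in re-analyzed and 0.40 in unmarked libraries, and the median difference was 0.17. The values below are to be read against these.

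5 genes higher in the high group had a lower slope in the re-analyzed libraries. TMEM238 differed by -6.61 (SE 1.92, limma adjusted p = 0.0154), with a slope of -1.64 in re-analyzed and 4.97 in unmarked libraries. The actin-binding NEXN differed by -4.31 (limma adjusted p = 0.0164), with 0.44 in re-analyzed and 4.74 in unmarked libraries. The splicing factor LUC7L3 differed by -4.10 (limma adjusted p = 0.00434), with 0.49 in re-analyzed and 4.59 in unmarked libraries. TEX9 differed by -3.42 (limma adjusted p = 0.00627) and the ubiquitin ligase scaffold CUL5 by -3.24 (limma adjusted p = 0.00425).

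4 genes lower in the high group had a higher slope in the re-analyzed libraries. The aminoacylase ACY1 differed by 2.74 (SE 0.987, limma adjusted p = 0.0493), with 0.44 in re-analyzed and -2.30 in unmarked libraries. The folate receptor FOLR1 differed by 2.70 (limma adjusted p = 0.0199), the protease inhibitor TIMP1 by 2.41 (limma adjusted p = 0.0231) and the complement chain C1QB by 2.24 (limma adjusted p = 0.0311). The sets hold different numbers of libraries and different ranges of intramuscular fat content, and the meaning of the mark is not stated. The source of the differences was not tested.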

How the results depend on the processing

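No paired analysis was possible because no replicate number pairs a high with a low library, but 45 title codes are shared by 2 or more unmarked animals, 11 of them with animals in both groups. With the title code as a random block (correlation 0.105) 6053 genes were higher and 1089 lower. Against 6056 higher and 1096 lower genes, the median of ratios gave 3720 and 4139, quantile normalization 3272 and 4756, and a mean of at least 5 gave 2465 and 691. Titles beginning with 15 gave 2950 and 65, the values as deposited 2046 lower and the nuclear sum without the 10 most abundant genes 2394 lower. By the median of ratios the slopes gave 140 positive and 147 negative genes in the re-analyzed libraries and 2838 and 2757 in the middle group, and 1163 genes had a lower slope in re-analyzed than in unmarked libraries. The median of ratios turned ESRRA to -0.0577, PERM1 to -0.16, MYH7 to -0.0893, MYH4 to -0.0890, MYL1 to -0.16, TNNC2 to -0.28 and ENSSSCG00000036235 to -0.0541. Quantile normalization turned PERM1 to -0.0798, GAPDH to 0.0799 and TNNT3 to 0.13. TNNC2 was -0.0505 as deposited and -0.0901 without the 10 most abundant genes. Of 143 gene results 57 lost their call within titles beginning with 15 and another 4 turned sign there: CRYAB was 0.17, NRF1 0.22, COX5A 0.13 and NR4A1 -0.0899. Smaller groups (10% at each end) gave COX5A 0.0122 and NR4A1 -0.21, and all unmarked libraries parted at the median gave NRF1 0.0821 and MYL1 -0.0072. NRF1 was 0.0088 with groups chosen on the share without the 10 most abundant genes, and 0.0050 without the 5 most extreme libraries of each group. In re-analyzed libraries the median of ratios turned the slopes of NEXN to -0.45, LUC7L3 to -0.37, ACY1 to -0.25, C1QB to -0.0606 and C1QA to -0.18. The cause was not tested. Without counts, the precision of low genes cannot be given.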
